A study of Mus musculus with 8 samples.

Results

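Most Nduf genes encode nuclear subunits of mitochondrial complex I, the NADH:ubiquinone oxidoreductase of the respiratory chain, or several of its assembly factors. Ndufa4 and Ndufa4l2 carry the name but were listed outside complex I. All protein-coding genes whose symbol begins with Nduf were read from a RefSeq table of mouse genes (GRCm38.p6, the assembly also called mm10). That gave 49 members of 21887 protein-coding genes, on 18 chromosomes, with 2 members on the X. Binding of PU.1, a transcription factor of the ETS family, was mapped by ChIP-seq, the sequencing of DNA precipitated with an antibody, in AML246. This is a line of mouse acute myeloid leukaemia cells whose PU.1 comes back under doxycycline (Dox) and is lowered again once Dox is taken away. Each deposited file listed the summits of called peaks with a score.

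The cells were grown with IL-3, received 0.1 ug/mL Dox from day 0 and were followed for 24 days, with Dox removed on day 12. The libraries titled restoration were Day 0 (untreated), Day 4, Day 8 and Day 12, treated with Dox for as many days and sorted for all viable cells. The library titled knockdown Day 12- 4 carried the treatment label of 12 days of Dox and a sort for Cd11b-high viable cells. Day 12- 8 was labelled 4 days off Dox, and Day 12- 12 was labelled 8 days off, both from all viable cells. These 3 knockdown libraries are called by their titles. A further sample, labelled 12 days off Dox, was not analysed here. All groups shared the AML246 line, the IL-3 medium and the same protocol, and each time point had 1 library, so no p-value is given. Depth was unknown. The lists held 8043, 57424, 33962 and 86271 summits at Days 0, 4, 8 and 12, and 9868, 21377 and 148415 in the 3 knockdown libraries, in title order. A missing call is not absence of binding, and scores, read as −log10 of the q-value, belong to their own list.

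Complex I has a matrix arm, with an N module that oxidises NADH and a Q module that passes electrons to ubiquinone, and a membrane arm whose proximal and distal parts pump protons. Its nuclear genes are expressed in nearly all cells, and short GC-rich promoters with ETS-type GGAA elements are widely described for respiratory chain genes. PU.1 and other ETS factors recognise a GGAA core in different flanks, PU.1 preferring an A-rich flank and the GABP type a CCGGAAG-like context. The AML246 label itself could not be checked against expression, since the files hold binding sites alone.

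Promoter sequences were matched for 42 of the 49 members in RefSeq's GRCm38.p6 table, from 250 bases before to 50 after the annotated start. The 4 promoters of members called in the most libraries follow, ties taken by the Day 12 score, with that of Ndufab1, which was called near its ends in no library. Members without a promoter entry, such as Ndufb9, could not be shown. Each runs 5′ to 3′ on the gene's strand, and capitals mark the ETS core GGAA or its reverse complement TTCC. They lie at chr8:69901971-69902270, minus strand (Ndufa13), chr1:92473709-92474008, minus strand (Ndufa10), chr3:32736813-32737112, plus strand (Ndufb5), chr17:78936885-78937184, plus strand (Ndufaf7) and chr7:122101799-122102098, minus strand (Ndufab1).
Ndufa13: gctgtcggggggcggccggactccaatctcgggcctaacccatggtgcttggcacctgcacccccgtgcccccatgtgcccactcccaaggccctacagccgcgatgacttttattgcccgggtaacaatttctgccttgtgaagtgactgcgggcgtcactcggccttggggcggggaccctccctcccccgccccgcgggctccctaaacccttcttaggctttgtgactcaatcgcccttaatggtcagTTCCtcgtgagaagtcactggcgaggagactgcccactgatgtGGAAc
Ndufa10: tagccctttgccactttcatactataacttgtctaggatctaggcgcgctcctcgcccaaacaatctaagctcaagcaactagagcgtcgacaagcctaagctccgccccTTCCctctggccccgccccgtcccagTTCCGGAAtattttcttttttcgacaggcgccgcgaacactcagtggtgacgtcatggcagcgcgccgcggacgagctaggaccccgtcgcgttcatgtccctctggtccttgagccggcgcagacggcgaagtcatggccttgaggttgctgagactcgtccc
Ndufb5: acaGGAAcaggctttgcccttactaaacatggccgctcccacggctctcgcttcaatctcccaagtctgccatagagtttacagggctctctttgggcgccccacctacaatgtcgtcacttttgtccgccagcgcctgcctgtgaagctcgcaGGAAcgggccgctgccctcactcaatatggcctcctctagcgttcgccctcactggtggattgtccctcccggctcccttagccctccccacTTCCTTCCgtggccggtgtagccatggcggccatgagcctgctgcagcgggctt
Ndufaf7: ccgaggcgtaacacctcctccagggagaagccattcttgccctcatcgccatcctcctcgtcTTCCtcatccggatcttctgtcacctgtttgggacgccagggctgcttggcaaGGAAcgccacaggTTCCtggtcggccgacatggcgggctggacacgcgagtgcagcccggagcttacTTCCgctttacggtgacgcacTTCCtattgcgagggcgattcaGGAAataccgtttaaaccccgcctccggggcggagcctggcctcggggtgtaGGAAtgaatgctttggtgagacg
Ndufab1: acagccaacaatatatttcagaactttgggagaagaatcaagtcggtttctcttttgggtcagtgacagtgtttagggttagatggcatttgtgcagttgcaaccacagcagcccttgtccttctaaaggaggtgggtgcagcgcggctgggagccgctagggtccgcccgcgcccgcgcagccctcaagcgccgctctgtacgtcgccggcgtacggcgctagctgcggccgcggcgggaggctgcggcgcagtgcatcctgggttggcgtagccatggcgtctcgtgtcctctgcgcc

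The Ndufa10 promoter held 3 GGAA cores, of which a TTCC and a GGAA abut, and the Day 12 summit lay 93 bp before the start, 15 bp from the centre of the nearest core. In Ndufaf7, with 7 cores, the Day 12 summit lay 51 bp before the start and 6 bp from the nearest core. The Ndufb5 summit lay 144 bp before the start and 50 bp from the nearest of 4 cores. At Ndufa13 the Day 12 summit lay 381 bp after the annotated start, outside the 300 bases shown. Ndufab1, which encodes the mitochondrial acyl carrier protein, held no GGAA core in these 300 bases. Ndufb4b, also called near its ends in no library, held 3 cores. Ndufa3, with none, was called near an end in 4 libraries and scored 30.6 at Day 12. Its Day 12- 8 summit lay 3439 bp after the start, away from this promoter. The core alone separates few promoters: it was found in 40 of 42 member promoters (95.2%) and in 95.8% of the 17492 promoters of protein-coding genes.

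The counts of longer ETS-type letters lay near the background. The GABP-type CCGGAAG, searched on both strands, stood in 6 of 42 member promoters (14.3%), against 11.9% of all promoters and 16.2% of other promoters weighted to the members' G+C content. The PU.1-type GAGGAAG stood in 4 of 42 (9.52%), against 13.5% of all. No member promoter held both, against 1.42% of all promoters. These 2 motifs share the letters GGAAG but do not match the same position. Shorter letters that overlap these were added after the first counts were seen. CCGGAA stood in 12 of 42 member promoters (28.6%), against 19.1% of all promoters and 25% after the G+C weighting. The letters CGGAAG stood in 15 (35.7%), against 21.5% of all and 27.8% after weighting. The letters GGAAGT stood in 12 (28.6%), against 25.1 and 28.1%. The 7 CCGGAAG matches in the 6 member promoters are shown with 12 flanking bases on each side, the motif in capitals, on the strand that reads CCGGAAG.
Ndufs3, chr2:90904730-90904760, minus strand: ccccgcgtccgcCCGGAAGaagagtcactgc
Ndufs3, chr2:90904702-90904732, plus strand: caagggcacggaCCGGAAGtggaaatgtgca
Ndufaf1, chr2:119662834-119662864, minus strand: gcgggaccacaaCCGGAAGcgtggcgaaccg
Ndufb6, chr4:40279635-40279665, plus strand: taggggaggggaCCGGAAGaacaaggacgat
Ndufb7, chr8:83566726-83566756, plus strand: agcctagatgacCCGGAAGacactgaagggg
Ndufaf8, chr11:120098914-120098944, plus strand: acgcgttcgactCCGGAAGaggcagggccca
Ndufs8, chr19:3912741-3912771, plus strand: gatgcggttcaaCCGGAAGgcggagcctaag

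Of these 6 members, 0, 6, 5 and 6 were called within 1 kb of either end at Days 0, 4, 8 and 12. In each of the 3 knockdown libraries 5 were called. Some calls lay at the end away from the motif. The Day 4 summits of Ndufb6, Ndufb7 and Ndufaf8 were 9485, 5863 and 2150 bp after the start. The Ndufb6 calls of Day 8 and Day 12- 4 also lay at its far end. Among the 36 members without the motif, 3, 18, 19 and 34 were called at Days 0, 4, 8 and 12. Over all genes, 33.0, 51.5, 62.8 and 85.8% of those with CCGGAAG were called on these days, and 22.1, 27.6, 29.2 and 52.5% of those without it. In the knockdown libraries, in title order, 10, 28 and 29 of the 36 members were called. Over all genes the shares there were 36, 71.2 and 73.8% with CCGGAAG and 13.1, 39.8 and 48.2% without it. For 17 members the Day 12 summit and 50 bp on either side fell inside the 300 bases. In that span 0 of 17 held CCGGAAG and 0 held GAGGAAG, against 16.3 and 11.5% of 3137 such genes, while GGAA stood in 13 of 17 (76.5%), against 83.1%. A match or its lack describes these letters in this window and says nothing of which factor was bound.

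At Day 0, before Dox, few Nduf genes carried a PU.1 summit at a gene end, and at Day 12 nearly all did. A summit lay within 1 kb of either end of 4 of 49 members at Day 0 (8.16%, exact 95% interval 2.27 to 19.6), against 23.5% of all protein-coding genes. At Day 4 it was 29 members (59.2%, 44.2 to 73.0), against 29.8%, and at Day 8 again 29, against 32.7%. The Day 12 library had 46 members called (93.9%, 83.1 to 98.7), against 56.2% of all genes. The library titled Day 12- 4 had 19 (38.8%, 25.2 to 53.8), against 15.4%, Day 12- 8 had 38 (77.6%, 63.4 to 88.2), against 43.5%, and Day 12- 12 had 40 (81.6%, 68.0 to 91.2), against 51.4%. The intervals cover counting error over genes and not the spread between cultures. Thus the members' share was below that of all genes in the untreated library and above it in the other 6.

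Weighting by gene length changed the background little. The members were short, with a median length of 7690 bp, against 17169 bp for all protein-coding genes. The share of the other genes, weighted to the members' lengths over 10 bins, was 20.5% at Day 0, 32.7, 33.5 and 58.0% at Days 4, 8 and 12, and 16.9, 42.4 and 55.2% in the 3 knockdown libraries, in title order. Weighting by promoter G+C instead, chosen after the data were seen, could use the 42 members with a promoter. Of these, 7.14, 57.1, 57.1 and 95.2% were called at Days 0, 4, 8 and 12, against a weighted background of 23.1, 39.8, 41.3 and 71.2%. In the knockdown libraries 35.7, 78.6 and 81.0% of the 42 members were called, in title order, against a weighted background of 22.2, 54.2 and 66.6%.

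**Figure D1:**
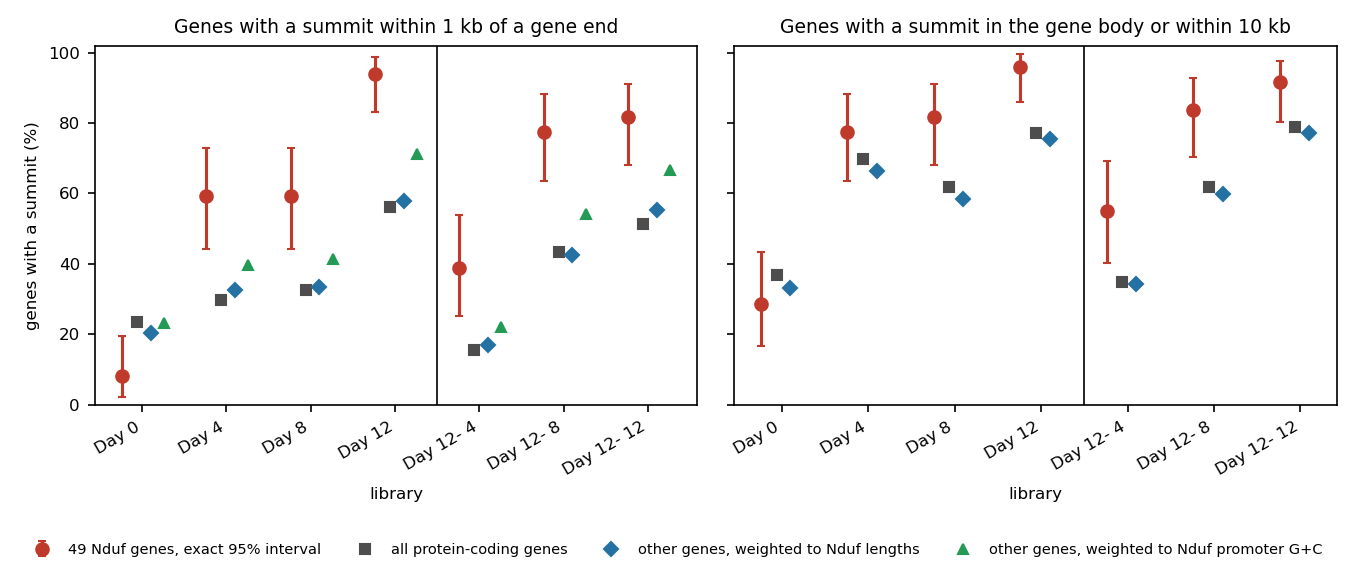
Share of genes (%) with a summit within 1 kb of a gene end (left panel) and in the gene body or within 10 kb (right panel) in each library, for the 49 Nduf genes with exact 95% intervals, for all protein-coding genes, and for other genes weighted to Nduf lengths or, left panel only and over the 42 members with a promoter, to promoter G+C content. The Nduf share lies below the other points at Day 0 and above them in the other 6 libraries.

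Crowding by neighbouring genes was commoner among the members than among all genes, and its counts were added after the values were seen. Another protein-coding gene ended within 1 kb of an end of 31 members (63.3%), against 24.8% of all genes, and all genes with such a neighbour were called more often, in 30.9% of cases at Day 0 and 83.0% at Day 12. Of the 31 crowded members 3, 19, 17 and 31 were called at Days 0, 4, 8 and 12 (9.68, 61.3, 54.8 and 100%). The shares of all crowded genes were 30.9, 46.2, 52.3 and 83.0%. In the 3 knockdown libraries, in title order, 41.9, 83.9 and 87.1% of crowded members were called, against 28, 66.2 and 74.3%. Of the 18 members without a neighbour, 1, 10, 12 and 15 were called at Days 0, 4, 8 and 12 (5.56, 55.6, 66.7 and 83.3%). The shares of all such genes were 21.1, 24.4, 26.3 and 47.3%. In the knockdown libraries 33.3, 66.7 and 72.2% of these members were called, in title order, against 11.2, 36 and 43.8%. The part of crowding in the members' shares was not tested.

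In the wider window, the gene body and 10 kb on either side, 14 members had a summit at Day 0 (28.6%, 16.6 to 43.3), against 36.8% of all genes. The counts were 38, 40 and 47 at Days 4, 8 and 12 (77.6, 81.6 and 95.9%), against 69.8, 61.7 and 77.1%. In the 3 knockdown libraries, in title order, they were 27, 41 and 45 (55.1, 83.7 and 91.8%), against 34.8, 61.8 and 78.9%. With length weights the background was 33.1, 66.3, 58.3 and 75.4% in the restoration series and 34.3, 59.8 and 77.2% in the knockdown series. The distance between members and other genes was thus smaller in this window than at gene ends. Each member had a summit in the window in at least 1 library, and 10 had it in all 7 (20.4%, against 17.5% of all genes).

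The order between libraries depended on list length. With each list reduced to its 8043 highest-scoring summits, the length of the Day 0 list, 8, 10 and 18 members were called near an end at Days 4, 8 and 12 (16.3, 20.4 and 36.7%), against 6.76, 12.7 and 19.8% of all genes. The count was 4 at Day 0 (8.16%, against 23.5%). In the 3 knockdown libraries, in title order, it was 17, 26 and 14 (34.7, 53.1 and 28.6%), against 13.7, 23.5 and 14.4%. With equal lengths Day 12- 8 thus held the most members. Counting only scores of at least 20, 2 members (4.08%) were called at Day 0, against 4.56% of all genes. Days 4 and 8 had 16 each (32.7%), against 15 and 18.7%, and Day 12 had 37 (75.5%), against 36.8%. The knockdown libraries had 8 in Day 12- 4 (16.3%), against 5.78%, 12 in Day 12- 8 (24.5%), against 9.6%, and 13 in Day 12- 12 (26.5%), against 13.9%.

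**Figure D2:**
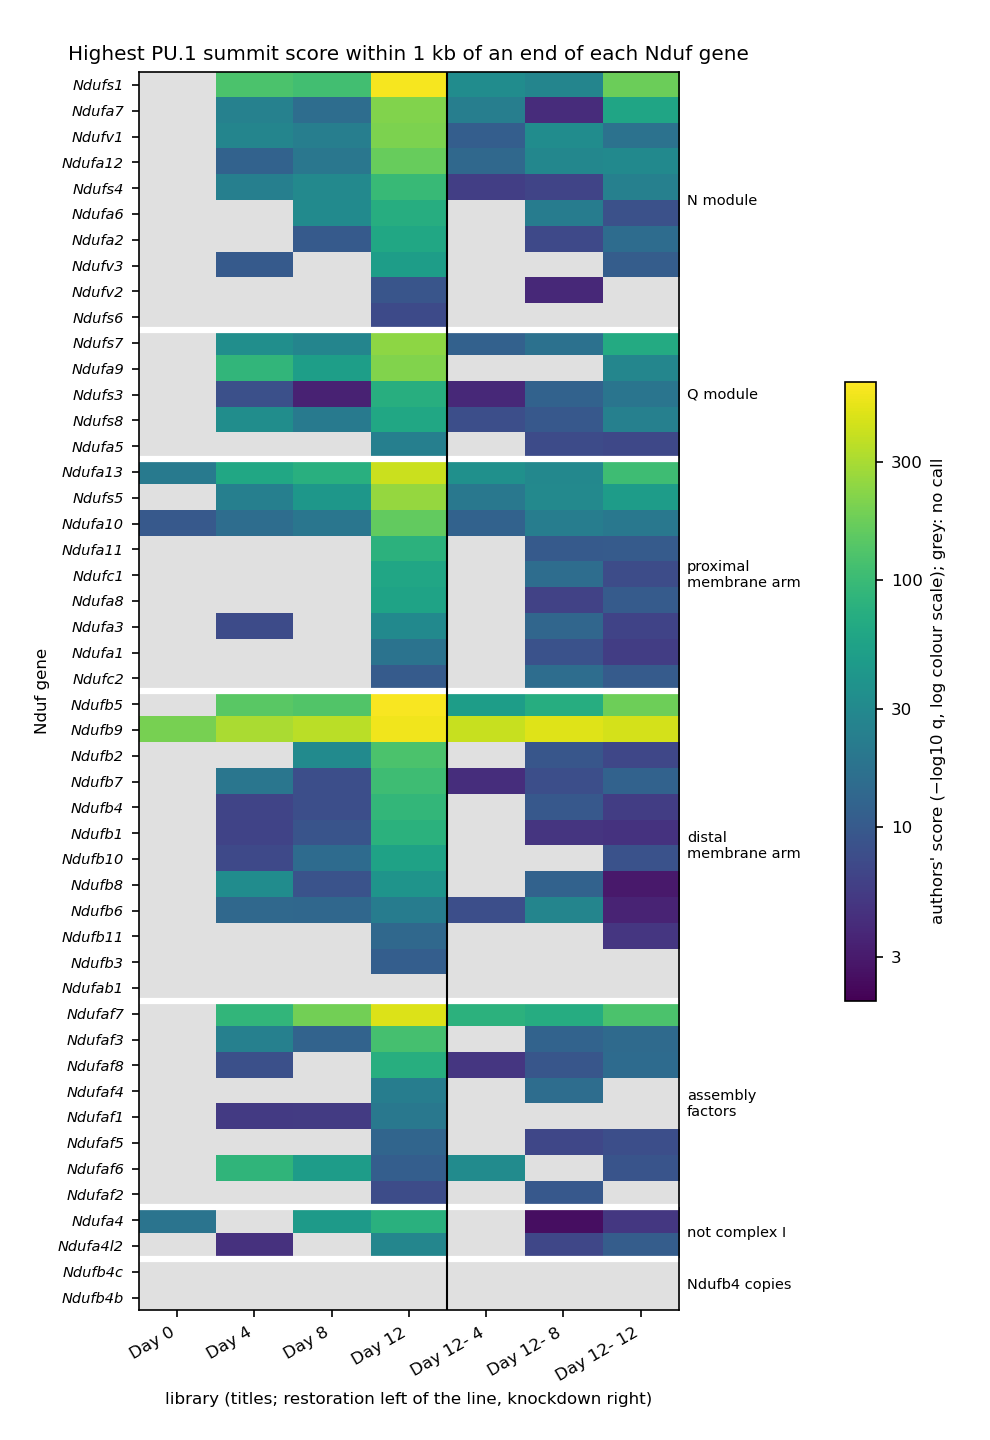
Highest score (authors' −log10 q-value, logarithmic colour scale) of a summit within 1 kb of an end of each of 48 Nduf genes (rows, by role in complex I) in the 7 libraries (columns), with grey where no summit was called. The Day 0 column is coloured for 4 genes and the Day 12 column for 45, and 3 rows are grey throughout.

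Of the 4 members with a Day 0 call, all were also called at Day 12, and 42 members (85.7%) had a Day 12 call without a Day 0 call, against 37.8% of all genes. No member was called at Day 0 and not at Day 12, against 5.17% of all genes. With 8043 summits at Day 0 and 86271 at Day 12, the longer list alone favours this direction. In 14 members a call near an end was present in every library but Day 0, which was the commonest pattern. They were all the members called in exactly 6 libraries (28.6%), while 8.46% of all genes were called in any 6. The share of all genes with this very pattern is not given, and the Day 0 list was the shortest. Among these 14 members were Ndufs1, Ndufs3, Ndufs4, Ndufs5, Ndufs7, Ndufs8, Ndufv1, Ndufa7, Ndufa12, Ndufb5, Ndufb6, Ndufb7 and Ndufaf7. At Ndufb5, Ndufb6, Ndufb7, Ndufa7 and Ndufs8 these calls came from different sites, and no single site was called in all 6 libraries. Members called in 6 or 7 libraries numbered 17 (34.7%), against 13.9% of all genes.

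Only Ndufb9, Ndufa13 and Ndufa10 were called near an end in all 7 libraries (6.12%, against 5.41% of all genes). Ndufb9, a distal membrane arm subunit of the LYR protein family (chromosome 15, 58933801 to 58939516), had scores of 193, 302, 345 and 557 over the restoration series, Day 0 to Day 12. The knockdown series gave 392, 481 and 438, in title order. The next highest Day 0 score of a member was 21.2, at Ndufa13. All 7 summits lay between 58933732 and 58933801, with an end of Tatdn1, a gene of the TatD nuclease family, at a median distance of 19 bp. No promoter sequence was at hand for Ndufb9.

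Ndufa10, a proximal membrane arm subunit (chromosome 1, 92439486 to 92473825), scored 10.0, 15.5, 19.3 and 160 at Days 0, 4, 8 and 12. Its summits in the 3 knockdown libraries, in title order, scored 12.3, 22.8 and 19.9. They spread from 92473690 to 92473878 around the start, with the Day 0 summit at the lower end of that span, inside the gene. Ndufa13, also known as GRIM-19 (chromosome 8, 69894163 to 69902558), had its highest Day 0 and Day 12 scores, 21.2 and 396, at different sites. The Day 0 summit lay at 69903150, 592 bp outside the gene and 368 bp from an end of Tssk6, a testis kinase gene. That outer site was called again at Day 8 (38.4), Day 12 (112), in Day 12- 8 (26.3) and in Day 12- 12 (9.52). The 6 libraries after Day 0 called a site inside the gene (69901625 to 69901696), itself nearer to an end of Tssk6 than to those of Ndufa13, scoring 61.5, 75.7 and 396 at Days 4, 8 and 12 and 35.7, 29.6 and 106 in the knockdown libraries, in title order. Hence, with summits merged at 100 bp, only the sites at Ndufb9 and Ndufa10 were themselves called in all 7. At Ndufb9 the Day 0 summit stood at 58933801, and those of the other libraries at 58933732 to 58933741. At Ndufa10 the Day 12- 8 summit at 92473730 and the Day 8 summit at 92473808 were neighbours. Merging at 50 bp parts both sites at these gaps.

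Ndufa4, the remaining member with a Day 0 call, encodes a protein now placed in complex IV. Its restoration scores were 18.2, 45.8 and 77.5 at Days 0, 8 and 12, and Day 12- 8 and Day 12- 12 gave 2.46 and 5.12. Day 4 and Day 12- 4 had no call. The site (chromosome 6, 11907765 to 11907895) lay at a median of 333 bp from the end of Ndufa4 and 58 bp from an end of Phf14.

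Of the catalytic core, which carries the flavin, the iron-sulphur clusters and the ubiquinone site, 7 subunits are nuclear, among them Ndufs1, Ndufv1 and Ndufv2. No core gene was called near an end at Day 0, against 23.5% of all genes, 6 were called at Days 4 and 8, against 29.8 and 32.7%, and 7 at Day 12, against 56.2%. In the 3 knockdown libraries, in title order, 6, 7 and 6 were called, against 15.4, 43.5 and 51.4%. In the wider window 4 of the 7 core genes had a Day 0 summit, against 36.8% of all genes. The other 42 members were called in 4, 23, 23 and 39 cases at Days 0, 4, 8 and 12. Ndufv2 was the core gene with fewest calls, scoring 9.15 at Day 12 and 3.91 in Day 12- 8 alone.

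Ndufs1, the largest core subunit, which carries iron-sulphur clusters of the N module (chromosome 1, 63143592 to 63176822), scored 124, 111 and 580 at Days 4, 8 and 12. It scored 33.1, 27.1 and 173 in the 3 knockdown libraries, in title order. The 6 summits lay within 63176798 to 63176853, at a median of 12 bp from the upper gene end. Eef1b2, a translation elongation factor gene, had an end beside that of Ndufs1. The Day 4 and Day 12- 8 summits lay 22 and 21 bp from the Eef1b2 end, nearer than the 31 and 30 bp to that of Ndufs1. Ndufv1, the NADH-binding flavoprotein (chromosome 19, 4007499 to 4012755), scored 27.3, 23.2 and 201 at Days 4, 8 and 12 and 11.2, 32.8 and 17.6 in the knockdown libraries. Its Day 12 summit lay 12 bp after the annotated start.

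Ndufs7, the subunit with the last iron-sulphur cluster before ubiquinone, scored 34.5, 27.6 and 236 at Days 4, 8 and 12 and 12.0, 17.1 and 66.9 in the knockdown libraries, at a site of its own start (chromosome 10, 80249285 to 80249499).

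Ndufb5, a distal membrane arm subunit (chromosome 3, 32737057 to 32751559), had the highest Day 12 score of the family, 595, after 144 and 133 at Days 4 and 8. In the knockdown libraries it scored 49.3, 71.5 and 176. The restoration summits and that of Day 12- 12 lay at 32736841 to 32736919, in the printed promoter, with an end of Mrpl47, a mitochondrial ribosomal protein gene, at a median of 149 bp. Those of Day 12- 4 and Day 12- 8 lay at 32737053 to 32737077, at the start itself. Ndufs5, a proximal membrane arm subunit, scored 24.2, 42.3 and 255 at Days 4, 8 and 12 and 19.8, 30 and 47.7 in the knockdown libraries, with all 6 summits at its start (chromosome 4, 123718165 to 123718305). Ndufa7, an N module accessory subunit, scored 25, 15.6 and 213 at Days 4, 8 and 12 and 23.5, 4.1 and 59.3 in the knockdown libraries. The Day 12- 8 summit was a separate site (chromosome 17, 33824493), 69 bp from an end of Rps28. The others lay at 33824620 to 33824654, also within 1 kb of Rps28.

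Among the 8 assembly factors, which join the complex for a time and leave it, none had a Day 0 call near an end, against 23.5% of all genes, and all 8 had a Day 12 call, against 56.2%. With 8 genes the Day 0 count says little. Ndufaf7, a mitochondrial methyltransferase (chromosome 17, 78937106 to 78948052), scored 88.2, 185 and 471 at Days 4, 8 and 12 and 80.5, 70.1 and 124 in the knockdown libraries. The 6 summits fell within 78937068 to 78937084, 10 bp from an end of Cebpz, in the printed promoter. Ndufaf6 scored 85.4, 48.4 and 11.1 at Days 4, 8 and 12 and 32.3 in Day 12- 4, highest at Day 4, at a site 905 bp outside the upper gene end (chromosome 4, 11077097 to 11077155). Ndufaf2, related in sequence to Ndufa12, scored 7.60 at Day 12 and 9.78 in Day 12- 8 near its ends and had no other call there. Its wider window held a summit in every list, with scores of 259, 87.6, 289 and 384 in the restoration series and 182, 304 and 237 in the knockdown series. That site stood 8185 bp outside Ndufaf2 at Day 0 (108044404 of chromosome 13) and 70 bp from an end of Smim15.

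By role, the Day 12 calls near an end covered 10 of 10 N module genes, 6 of 6 Q module genes, 9 of 9 proximal and 11 of 12 distal membrane arm genes. The share of all genes was 56.2%. At Day 4 the counts were 6, 5, 4 and 8 in the same order, against 29.8% of all genes, and at Day 8 they were 7, 5, 3 and 9, against 32.7%. The 3 of 9 proximal arm genes at Day 8 (33.3%) were thus at the background. At Day 0 these counts were 0, 0, 2 and 1, against 23.5%. The median Day 12 score of called genes was 84.3 in the N module, 143 in the Q module, 60.7 and 79.7 in the proximal and distal arm, and 21.5 among assembly factors. Over all called members it was 72.2, from 7.35 at Ndufs6 to 595 at Ndufb5, against 42.8 over all called genes. At Days 0, 4 and 8 the members' median scores were 19.7, 24.2 and 23.2, against 10.2, 20.1 and 25.2 over all called genes. In the 3 knockdown libraries, in title order, they were 13.9, 12.1 and 11.5, against 14, 9.44 and 9.77.

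Ndufb3 and Ndufs6 were called near an end at Day 12 alone, with scores of 11.2 and 7.35. Ndufb3 is a distal membrane arm subunit and Ndufs6 a zinc-binding subunit of the N module. The members without a call near an end in any library were Ndufab1, Ndufb4b and Ndufb4c, named after their values were seen. Ndufab1 (chromosome 7, 122086815 to 122101848) had 2 summits at Day 4 and 1 at Day 8 within 10 kb. Ndufb4b and Ndufb4c are short genes of 471 and 485 bp named after Ndufb4. Ndufb4 itself scored 6.52, 8.02 and 89.9 at Days 4, 8 and 12. Reads from near-identical copies may not be placed uniquely, and how the authors treated them was not given in the sources used here.

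Where strand was known, most sites lay at starts. Merging the 7 lists at 100 bp gave 113 sites near the ends of 46 members, of which 59 were called in a single library, 10 in 6 and 2 in all 7. Of 95 sites at members with an annotated start, 66 lay within 1 kb of it and 29 did not. The median of these 66 lay 6 bp after the start, with quartiles of 92 bp before and 133 bp after. At Day 12, 40 of 42 members had a summit within 1 kb of the start (95.2%), against 53.9% of all genes with an annotated start, and at Day 0 it was 2 of 42 (4.76%), against 24.2%. Of those 40 summits, 25 (62.5%) lay within 100 bp of the start, against 44.0% of 9430 genes. At Day 4 it was 7 of 20 (35%), against 37%, and at Day 8 16 of 23 (69.6%), against 45%. The knockdown libraries had 57.1, 46.9 and 55.9% of members within 100 bp, in title order, against 48.1, 38.2 and 37.1%. Another protein-coding gene ended within 1 kb of 66 of the 113 sites, and 31 sites lay closer to another gene's end than to the member's.

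**Figure D3:**
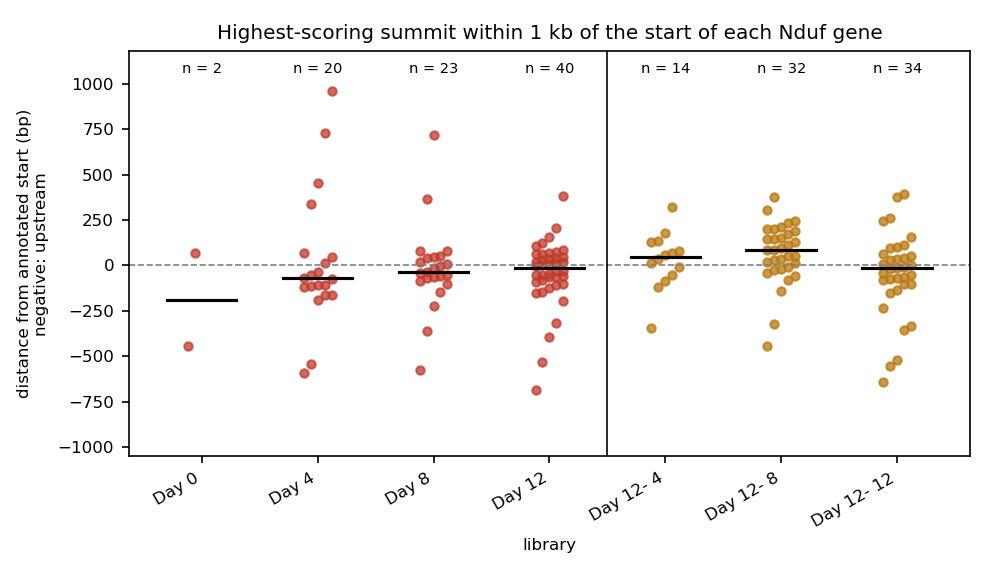
Distance in bp (negative: upstream) from the annotated start to the highest-scoring summit within 1 kb, for the Nduf genes with an annotated start called in each library, with black bars at the medians. The Day 12 points centre on the start, with a median of -16 bp over 40 genes, and the library titled Day 12- 8 has its median 84 bp downstream over 32 genes.

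The median position differed between lists. For the members it was 188 bp before the start at Day 0, over 2 genes, and 71, 36 and 16 bp before it at Days 4, 8 and 12. In Day 12- 4 and Day 12- 8 it was 46 and 84 bp after the start, and in Day 12- 12 it was 16 bp before it. Over all genes the Day 0 median was 122 bp after the start, the Day 4 median 40 bp before it, and the Day 8 and Day 12 medians 3 and 6 bp after it. The knockdown libraries had medians of 3, 78 and 20 bp after the start over all genes, in title order.

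Genes of the other respiratory complexes, taken from lists of complexes II, III and IV and the ATP synthase, gave similar values at Day 12. Of these 44 genes 40 were called near an end at Day 12 (90.9%), against 58% of other genes weighted to their lengths. Earlier in the series 9 had a call in the untreated library (20.5%), 22 after 4 days (50%) and 23 after 8 (52.3%), against 20.1, 32.9 and 33.3%. The knockdown libraries had 14, 28 and 31 (31.8, 63.6 and 70.5%), in title order, against 17, 42.3 and 55.7%. With lists of equal length 9, 2, 9 and 17 of the 44 were called at Days 0, 4, 8 and 12. The shares of all genes were then 23.5, 6.76, 12.7 and 19.8%, so the Day 4 excess was not kept. In the knockdown libraries 11, 18 and 13 were called with equal lengths, in title order, against 13.7, 23.5 and 14.4%. A Day 12 call without a Day 0 call was found in 31 of the 44 genes, against 37.8% of all genes. The Day 0 share of the 44 genes was near the 23.5% of all genes, unlike that of the Nduf genes, and the difference between the 2 lists was not tested. Complex IV had the lowest Day 12 share of these complexes, 8 of 11 (72.7%). The complex II gene Sdhb, encoding its iron-sulphur subunit, scored 256 at Day 12, with no Day 0 call, and Atp5c1, the gamma subunit of the ATP synthase, scored 19 at Day 0 and 327 at Day 12. Of complex I assembly factors not named Nduf, 9 of 10 were matched. All 9 were called at Day 12, against 56.2% of all genes, and 1 at Day 0 (11.1%), against 23.5%. With 9 genes the Day 0 count says little.

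**Figure D4:**
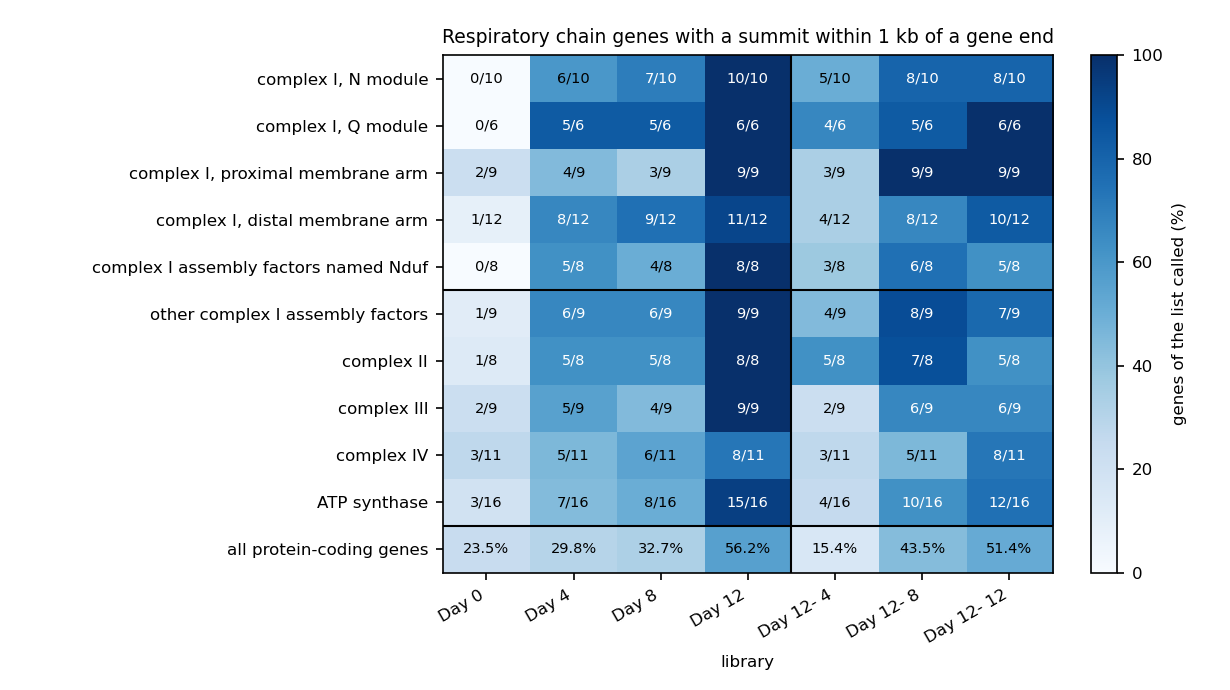
Number of genes called within 1 kb of a gene end over the number in each list (cells, with the share in % as colour) in the 7 libraries, for complex I by role, other assembly factors and the other respiratory complexes, with all protein-coding genes in the bottom row. At Day 12 complex IV has the lowest share of the lists, at 8 of 11, above the 56.2% of all protein-coding genes. At Day 0 no list passes 3 genes, and the shares run from 0 to 27.3% (complex IV, 3 of 11), against 23.5%.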

How the data were processed

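The deposited files were lists of peak summits, 1 base each, with a score per summit. MACS2 was the tool and mm10 the build, per the submitters' processing notes. The score was read as the −log10 q-value the authors deposited, because the lowest score in all lists, 1.30104, lies just above 1.30103, the value of a q of 0.05. Aligner, control, filters, depth and pooling are not stated in any label or header used here.

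The members and gene lists were chosen with earlier results of these data known. Protein-coding genes on chromosomes 1 to 19, X and Y came from RefSeq's GRCm38.p6 table, and 5 Nduf-named pseudogenes were left out. A gene was called when a summit lay within 1 kb of either end, or in its body plus 10 kb. Weighted backgrounds averaged the other genes' shares over 10 bins of length or G+C, in the members' proportions. Shares carry exact Clopper-Pearson 95% intervals. Sites were merged by single linkage at 100 bp. Annotated starts came from the promoter table, with the entry nearest the gene's outer end used where a gene had several. Named genes were those called in all libraries, of the rest those with the 6 highest scores at Day 0, Day 12 or Day 12- 12, and those called in 1 library. Ndufv1, Ndufv2, Ndufaf6, Ndufaf2, Ndufb4, Ndufa3, Ndufab1, Ndufb4b, Ndufb4c, Sdhb, Atp5c1 and the CCGGAAG stretches were added after their values were seen. Promoters shown were the 4 called in most libraries and 1 called in none. Counting was tested on simulated summits. Python 3.11.15, numpy 2.4.6, pandas 2.3.3, scipy 1.17.1 and matplotlib 3.10.9 were used. Values of 1 member, included in the counts, are not reported here.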

Additional observations from a re-analysis of the deposited data

How the results depend on the processing

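At 500 bp and 2 kb the counts near gene ends were 3 and 6 at Day 0, 20 and 30 at Day 4, and 44 and 47 at Day 12. Length weights from 20 bins changed the backgrounds little, such as from 20.5 to 20.7% at Day 0 and from 58.0 to 58.2% at Day 12 near gene ends. G+C weights, added later, moved the Day 12 background to 71.2%. With equal list lengths the counts near an end were 8, 10 and 18 at Days 4, 8 and 12 and 14 in Day 12- 12, and in the wider window they were 15, 18 and 26, and 21. Scores of at least 20 left 2, 16 and 16 members near an end at Days 0, 4 and 8 and 8, 12 and 13 in the knockdown libraries, in title order. In the wider window that minimum left 5, 24 and 21, then 12, 15 and 20. The gene body alone held summits in 2, 18, 21 and 31 members in the restoration libraries and in 13 and 27 in Day 12- 4 and Day 12- 8. A margin of 5 kb left 8 members at Day 0. Counting only summits whose nearest gene end was the member's left 2 at Day 0 and 18 at Day 4, and annotated starts alone, added later, left 2 at Day 0 and 1 member called in all 7 libraries. No share of all genes is given at 500 bp, 2 kb or 5 kb, for the gene body alone or by nearest end. The same holds for the wider window with equal lists or the score minimum. The counts at these settings therefore do not set the members against other genes. Without each library in turn, the number of members called in all the rest ran from 3 to 17, the 17 being without Day 0. Linkage at 50 or 200 bp gave 142 or 99 sites. At 50 bp the sites of Ndufb9 and Ndufa10 no longer held all 7 libraries. No paired analysis was possible because each time point had 1 library. Depth was unknown, so shorter lists may miss sites that longer lists hold, and this limits comparisons between libraries.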

Other observations

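The mitochondrial genome encodes 7 further complex I subunits, outside the Nduf genes. Of 8 summits on it over all lists, 3 were in the Day 0 list and 5 in the library titled Day 12- 8, and the other 5 lists had none. The Day 0 summits lay in ND2, ND5 and ND6, at scores of 10.8, 21.5 and 13.8. Those of Day 12- 8 lay in ND1, ND2, ND5, ND6 and CYTB, at 5.63, 68.2, 51.1, 48.9 and 28.1, the last a complex III gene. The ND2, ND5 and ND6 summits of the 2 lists stood at 4725 and 4776, 11814 and 11835, and 13857 and 13808. Mitochondrial DNA is present in many copies per cell, and its part in these calls was not tested.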
